A study of Homo sapiens with 6 samples.

Results

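The epidermal differentiation complex is a cluster of genes on human chromosome 1 that encode structural and calcium-binding proteins of the outer epidermis. Its genes were taken here by symbol: S100A genes with a number, SPRR genes, LCE genes, and IVL, LORICRIN, FLG, FLG2, HRNR, RPTN, CRNN, TCHH, TCHHL1, KPRP, SMCP and CRCT1. The rule gave 57 of the 19493 genes that had a value in every library: 17 S100A genes, 10 SPRR genes, 18 LCE genes, 7 fused S100-type genes (FLG, FLG2, HRNR, RPTN, CRNN, TCHH and TCHHL1) and 5 others (IVL, LORICRIN, KPRP, SMCP and CRCT1). RefSeq places 56 of the 57 in 1 stretch of chromosome 1 that holds 63 protein-coding genes in all.

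RNA was sequenced from HaCaT cells, an established and spontaneously immortal human keratinocyte line, which here expressed the photolyase of the marsupial Potorous tridactylus that splits cyclobutane pyrimidine dimers (CPDs). There were 3 groups of 2 libraries. Control cells were untreated, with the photolyase inactive. UVC cells received 15 J/m2 at 254 nm with the photolyase inactive and were harvested 6 h later. The last group received the same dose and 2 h of white light, which activates the photolyase. White light was given in that group alone, so light and photolyase activity cannot be told apart. All groups carry the photolyase transgene, and the sources used here give neither its promoter nor whether the cells are 1 clone. Nor do they say whether replicates are separate cultures. The p-values therefore rest on the spread of these libraries alone, and that spread may be technical.

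Keratinocytes that leave the basal layer replace their plasma membrane by the cornified envelope, a shell of cross-linked protein. Involucrin (IVL) is laid down early, small proline-rich (SPRR) proteins act as cross-bridges, and loricrin and late cornified envelope (LCE) proteins are added late. Transglutaminases join them. S100 proteins are small calcium sensors with EF-hand motifs, and the fused S100-type proteins, such as profilaggrin (FLG), join such a domain to long repeats. UVC makes CPDs, which block RNA polymerase II in transcribed strands.

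Total gene counts ran from 57669389 to 70005705 per library. Levels below are the deposited corrected RPKM (cRPKM, read counts corrected for effective gene length and library total) divided by a library factor (trimmed mean of M values, TMM), called scaled cRPKM. Keratinocyte markers were all present (11 of 11 tested), at a summed 29140 and 28250 scaled cRPKM in control, 16540 and 16190 in the UVC cells and 26890 and 26800 with active photolyase. KRT17 made up the largest part of that sum, at a mean of 13680 in control, 5471 in the UVC cells and 12380 with active photolyase. Of these markers 8 of 11 were lower after UVC and 9 of 11 were higher with active photolyase than after UVC (43.1% and 39.2% of all tested genes). After UVC KRT5 (0.32 ± 0.06) and KRT1 (0.70 ± 0.11) were higher, and KRT16 was not called (-0.01 ± 0.07). The part of these markers in the results below was not tested. Melanocyte markers summed to 1.35 to 2.25 and fibroblast markers to 7.33 to 9.59 over all libraries. In bulk RNA, fewer cells of a type and less RNA per cell cannot be told apart.

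Of the 57 genes, 40 reached 1 cRPKM in at least 2 libraries and were tested, 11 had reads but stayed below that level, and 6 had no read in any library. A gene was called when edgeR's adjusted p over all 11926 tested genes was under 0.05. After UVC, 22 of the 40 were called lower and 8 higher, while 43.1% of all tested genes were lower and 42.5% higher (85.6% called in all). Falls of at least 2-fold were 17 of the 40 and such rises 3, against 18.6% and 9.89% of all tested genes. With active photolyase against UVC, 29 of the 40 were higher and 5 lower (39.2% and 39.9% of all tested genes, 79.1% called in all). Of those, 20 were higher by at least 2-fold and none lower by that much (14% and 1.37% of all). With active photolyase against control, 29 were higher and 3 lower (33% and 32.9% of all, 65.8% called). Here 8 were higher by at least 2-fold and none lower by that much (4.06% and 2.02% of all). The comparisons share libraries, so their counts are not independent. The 34 genes that reached 1 cRPKM in all 6 libraries gave 20 lower and 6 higher after UVC, 26 and 5 higher and lower against UVC, and 25 and 3 against control. The other 6 (HRNR, KPRP, LCE1A, RPTN, S100A5 and S100A12) passed the filter through some libraries only, and the 2-fold counts and the medians below include them. HRNR, LCE1A and RPTN, at 1 cRPKM in no control library, are among the 8 genes higher than control by at least 2-fold. KPRP, LCE1A and RPTN are among the 20 against UVC. After UVC, KPRP and LCE1A are among the 17 falls and HRNR among the 3 rises.

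The median log2 fold change of the 40 was -0.67 after UVC, 1.03 with active photolyase against UVC and 0.59 with active photolyase against control, beside 0.00, -0.04 and 0.01 over all tested genes. These values are relative to the bulk of transcripts. With library totals in place of TMM factors, the median of all tested genes moved to 0.42 after UVC and to -0.34 against UVC. The members' median was then -0.25 after UVC, with 14 called higher and 20 lower, while all tested genes split into 7095 higher and 3542 lower. Against UVC, library totals gave 26 members higher and 7 lower, while all tested genes split into 3318 higher and 6954 lower.

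**Figure D1:**
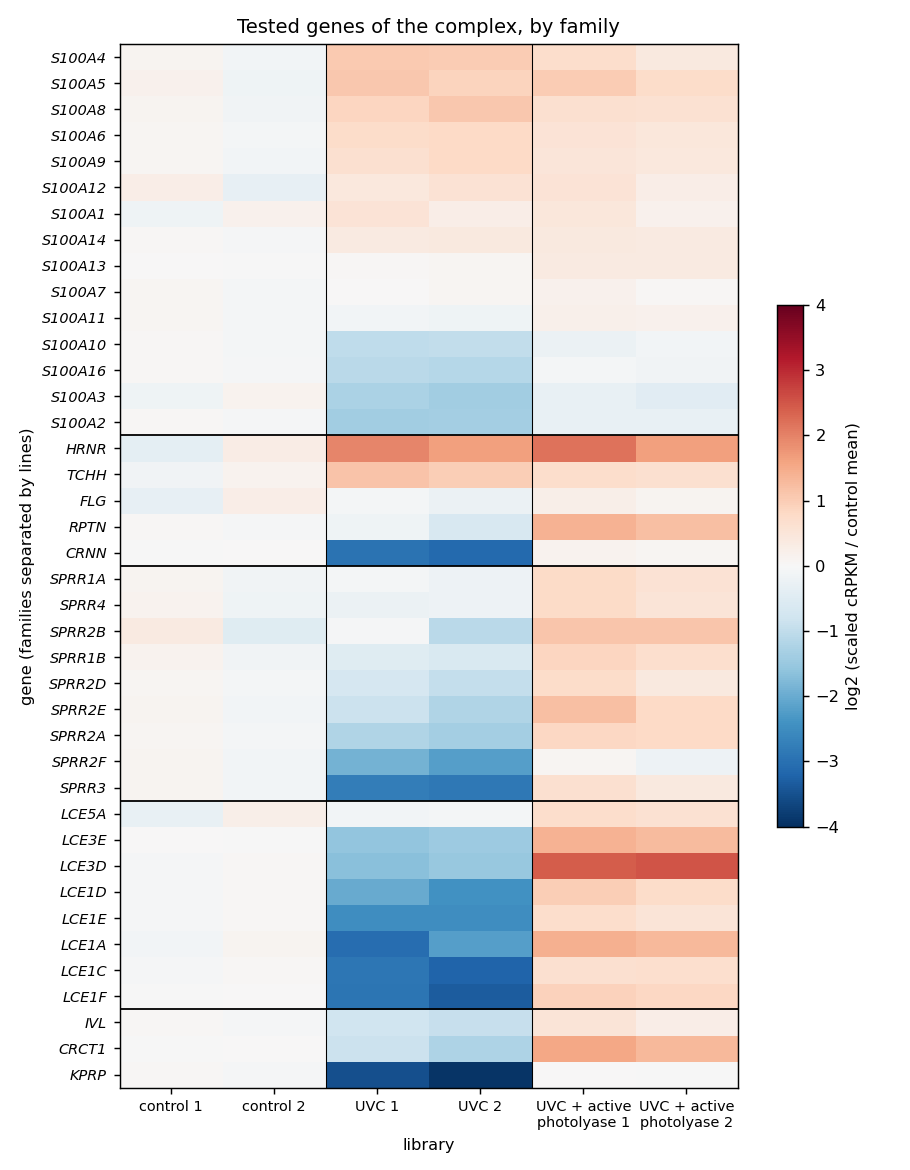
Heat map of the 40 tested genes of the complex (rows, grouped by family and ordered by the change after UVC) in the 6 libraries (columns); colour is the log2 ratio of scaled cRPKM to the control mean, from blue (lower) to red (higher). SPRR and LCE rows are mostly blue in the UVC libraries and red with active photolyase, whereas S100A rows are split.

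The SPRR genes encode short proteins of proline-rich repeats that bridge other envelope proteins. After UVC, 6 of the 9 tested were lower and 3 were not called (median log2 change -0.81), and 43.1% of all tested genes were lower. With active photolyase 9 of 9 were higher than after UVC (median 1.58), and 8 of 9 were higher than in control (median 0.68). Of all tested genes, 39.2% and 33% were higher in these comparisons. With library totals 5 were lower and 1 higher after UVC, and the counts in the other comparisons were again 9 and 8 higher. Of the 11926 tested genes, library totals gave 3542 lower and 7095 higher after UVC, and 3318 and 5237 higher in the others. SPRR2D had the highest level in control of the family. SPRR1B, SPRR2A and SPRR2E followed, and in that order each overlapped the next in the control libraries.

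SPRR2A (ENSG00000241794) was at 1167 and 1033 scaled cRPKM in the control libraries, 479 and 428 in the UVC cells, and 1962 and 1896 with active photolyase. The 3 groups did not overlap, and the photolyase libraries were the highest. Its log2 change was -1.28 ± 0.07 (SE) after UVC, 2.09 ± 0.07 with active photolyase against UVC, and 0.81 ± 0.07 against control (adjusted p = 6.15e-10, 7.2e-12 and 2.87e-07 by edgeR). SPRR2E was at 1050 and 904 in control, 544 and 422 in the UVC cells and 2250 and 1703 with active photolyase, again without overlap. Its changes were -1.01 ± 0.13, 2.03 ± 0.13 and 1.02 ± 0.13. SPRR2D, at 1765 and 1608 in control, 1059 and 867 in the UVC cells and 2781 and 2221 with active photolyase, changed by -0.81 ± 0.10, 1.38 ± 0.10 and 0.57 ± 0.10 in the same order.

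SPRR2F took another course against control. It was at 241 and 209 in control, 61.1 and 49.0 in the UVC cells and 238 and 194 with active photolyase, so the last group overlapped control. Its changes were -2.03 ± 0.11 after UVC and 1.97 ± 0.11 against UVC, and the difference from control was -0.06 ± 0.10 (edgeR adjusted p = 0.612). The least abundant tested member, SPRR2B, held 17 to 76 reads per library. It was not called after UVC (-0.47 ± 0.37) except without control replicate 2 (-0.83, edgeR adjusted p = 0.0489), and was higher with active photolyase than after UVC (1.58 ± 0.31) and than in control (1.11 ± 0.30).

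SPRR1B was at 1409 and 1156 in control, 927 and 848 in the UVC cells and 2340 and 2028 with active photolyase, with no overlap between groups. The changes were -0.53 ± 0.09, 1.30 ± 0.09 and 0.77 ± 0.09. The fall after UVC was not called with library totals (-0.11, edgeR adjusted p = 0.232). The other SPRR1 gene, SPRR1A, at 584 and 493 in control, 507 and 470 in the UVC cells and 914 and 808 with active photolyase, overlapped between control and UVC. SPRR1A was not called after UVC (-0.14 ± 0.08), a value that turned to 0.28 with library totals (edgeR adjusted p = 0.00403) and was called lower without control replicate 2 (-0.26, edgeR adjusted p = 0.00257). With no filter on low values it was called lower as well (-0.23, edgeR adjusted p = 0.0153). SPRR1A was higher with active photolyase than after UVC (0.82 ± 0.08) and than in control (0.68 ± 0.08).

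SPRR3, an SPRR gene typical of moist stratified epithelia, had the largest fall of the family. It stood at 20.5 and 17.4 in control, 2.78 and 2.59 in the UVC cells and 29.4 and 24.9 with active photolyase. Its fall after UVC was 7.06-fold (log2 change -2.82 ± 0.12), and with active photolyase it was 10.1-fold above UVC (3.34 ± 0.12) and 1.43-fold above control (0.52 ± 0.09). SPRR4 was at 7.36 and 5.96 in control, 5.70 and 5.83 in the UVC cells and 11.3 and 9.47 with active photolyase. It was not called after UVC (-0.21 ± 0.13) except without control replicate 2 (-0.35, edgeR adjusted p = 0.0307), and was higher with active photolyase against UVC (0.85 ± 0.13) and control (0.64 ± 0.12). SPRR2G, with 5 to 26 reads per library, was under the filter.

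**Figure D2:**
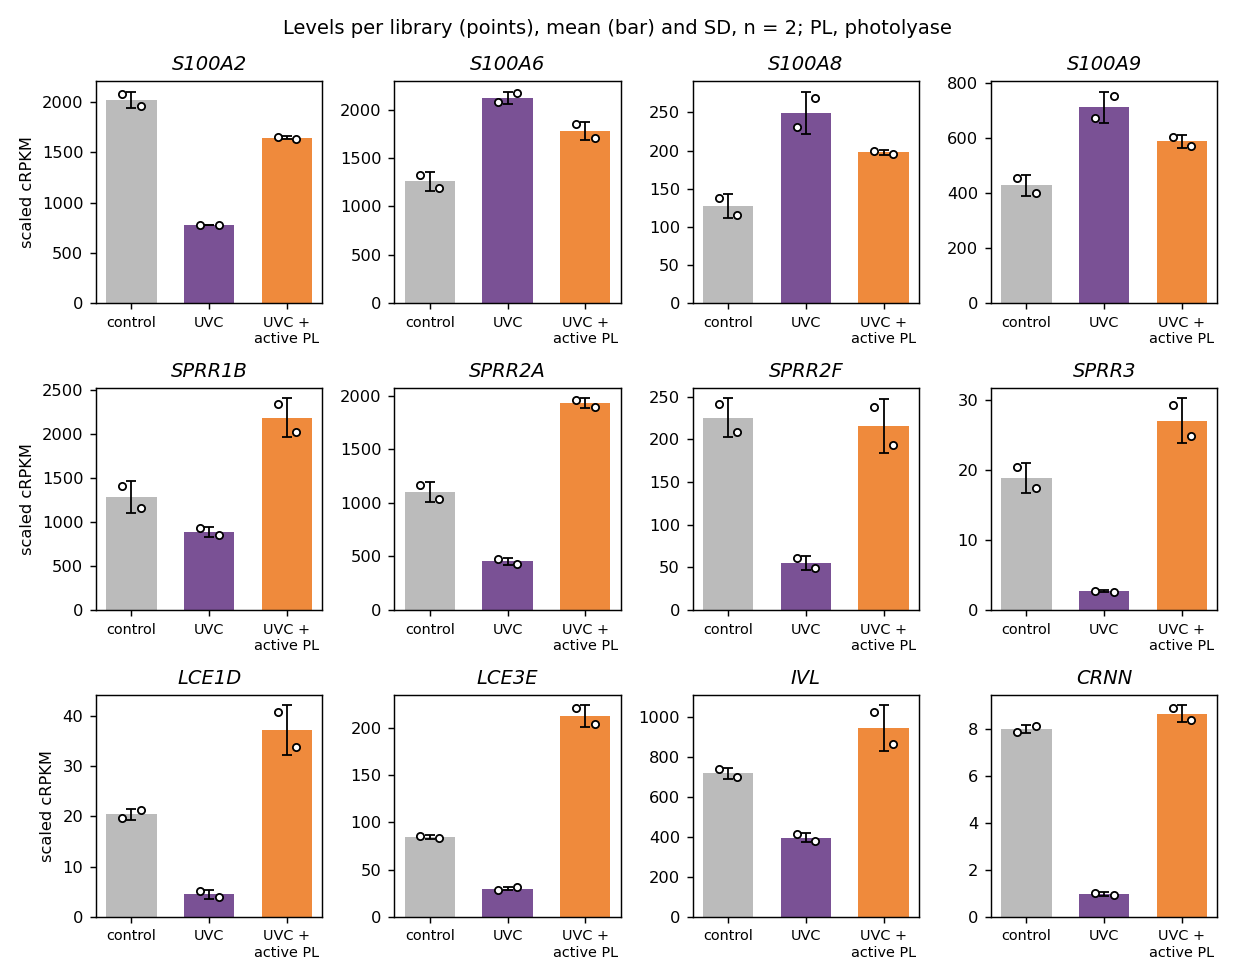
Scaled cRPKM of 12 genes of the complex in control, UVC and UVC with active photolyase (PL); bars are means, error bars SD, and points the 2 libraries of each group. SPRR1B, SPRR2A, LCE1D, LCE3E and IVL were lowest after UVC and highest with active photolyase, while S100A6, S100A8 and S100A9 were highest after UVC.

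The SPRR2 genes are near-identical, so reads can be divided between them. Effective lengths, from deposited counts and cRPKM, were 170 nt for SPRR2D and 198 nt for SPRR2A, or 21.3% and 27.9% of their longest GENCODE transcripts. In an analysis chosen after seeing the data, the counts of each family were summed into 1 feature. The SPRR2 sum of 6 genes changed by -1.05 ± 0.10 after UVC, 1.82 ± 0.10 against UVC and 0.77 ± 0.10 against control. The SPRR1 sum changed by -0.40 ± 0.09, 1.14 ± 0.09 and 0.74 ± 0.09.

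The 6 promoters below are shown as the tested envelope genes (IVL and SPRR) that hold a match to the AP-1 letters TGAGTCA. Each was higher with active photolyase than after UVC, but so were all 9 tested SPRR genes, including SPRR2B and SPRR4, which hold no match. S100A2, S100A3 and S100A5 also hold a match and are not shown. In that comparison S100A2 and S100A3 were higher and S100A5 was not called (-0.11 ± 0.21). Whether the letters and the rise are linked was not tested. AP-1 is a dimer of FOS and JUN family proteins, and AP-1 sites are known to act in the promoters of several envelope genes. The AP-1 letters and the TATA box letters TATAAA are in capitals. Each stretch is the 200 bases before the annotated start, 5′ to 3′ on the gene's strand, from RefSeq (GRCh38.p14, another build than the hg19 of the counts).
IVL, chr1:152908346-152908545, plus strand: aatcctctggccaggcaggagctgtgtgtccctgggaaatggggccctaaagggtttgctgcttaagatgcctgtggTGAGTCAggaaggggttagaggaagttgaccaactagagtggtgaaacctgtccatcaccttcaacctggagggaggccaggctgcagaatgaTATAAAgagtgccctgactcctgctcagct
SPRR1A, chr1:152983881-152984080, plus strand: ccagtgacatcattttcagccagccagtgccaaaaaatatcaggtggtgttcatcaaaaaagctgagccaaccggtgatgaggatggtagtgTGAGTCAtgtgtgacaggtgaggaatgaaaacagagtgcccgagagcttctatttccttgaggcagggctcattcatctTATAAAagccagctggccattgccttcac
SPRR1B, chr1:153031003-153031202, plus strand: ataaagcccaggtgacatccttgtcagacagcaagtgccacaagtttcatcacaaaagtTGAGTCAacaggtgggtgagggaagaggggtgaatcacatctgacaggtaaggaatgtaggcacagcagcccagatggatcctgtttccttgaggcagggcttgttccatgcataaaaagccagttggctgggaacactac
SPRR2A, chr1:153057513-153057712, minus strand: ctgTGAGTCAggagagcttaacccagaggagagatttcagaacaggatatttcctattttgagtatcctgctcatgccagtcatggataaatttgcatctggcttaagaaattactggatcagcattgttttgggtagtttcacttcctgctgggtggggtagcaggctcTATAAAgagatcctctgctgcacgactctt
SPRR2F, chr1:153113517-153113716, minus strand: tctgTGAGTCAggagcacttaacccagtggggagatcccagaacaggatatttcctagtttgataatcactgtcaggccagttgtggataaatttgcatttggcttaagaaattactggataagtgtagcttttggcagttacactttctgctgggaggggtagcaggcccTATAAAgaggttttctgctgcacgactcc
SPRR3, chr1:153001549-153001748, plus strand: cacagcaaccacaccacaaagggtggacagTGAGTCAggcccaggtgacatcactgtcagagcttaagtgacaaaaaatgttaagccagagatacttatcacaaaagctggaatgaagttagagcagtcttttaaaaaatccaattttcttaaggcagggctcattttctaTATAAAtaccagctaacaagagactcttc
SPRR2A and SPRR2F carry the AP-1 letters at nearly the same place, first base at -197 and -196 from the start, whereas SPRR3 (-170), SPRR1B (-141), IVL (-123) and SPRR1A (-108) carry them closer. SPRR1B has no exact TATAAA in this stretch.

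Promoter sequences of 300 bases, 250 before and 50 after the start, were found for 52 of the 57 genes, and for 37 of the 40 tested. SPRR2D and SPRR2E gave no match to any of the letters searched, and their sequences may be among the missing ones. TGAGTCA or its reverse complement TGACTCA lay in 10 of the 52 (19.2%) and in 6.05% of 27305 genes of the table. Beside the 6 shown, the 10 were LORICRIN, S100A2, S100A3 and S100A5. TATAAA, on either strand, lay in 29 of the 52 (55.8%) and in 14% of all genes, mostly with its first base at -31 to -28. The C/EBP letters TTGCNNAA lay in 9 of the 52 (17.3% against 12.7%), and the GRHL letters AACCGGTT in none (0.165% of all genes). A match is a description of the letters and not a measured binding site.

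LCE genes encode small cysteine-rich proteins added late to the envelope, in 3 main groups that differ by skin site and by state. Of the 8 tested, 7 were lower after UVC, each by at least 2-fold, and LCE5A was not called (median -2.33). Of all tested genes 43.1% were lower, and 18.6% by at least 2-fold. With active photolyase 8 of 8 were higher than after UVC (median 3.38) and higher than control (median 0.87), and with library totals these counts were the same. Of all tested genes, 39.2% and 33% were higher in these comparisons, and with library totals 3318 and 5237 of 11926. The 8 and the medians include LCE1A, which reached 1 cRPKM in the active photolyase libraries alone. LCE3E was the most abundant, at 86.1 and 83.5 scaled cRPKM in control, 28.5 and 31.3 in the UVC cells and 221 and 205 with active photolyase. The 3 groups did not overlap. Its changes were -1.50 ± 0.07, 2.83 ± 0.07 and 1.33 ± 0.06 (adjusted p = 1.23e-10, 4.11e-13 and 1.54e-09 by edgeR).

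LCE3D, its neighbour, had the largest rise of the tested members both against UVC and against control. It stood at 3.95 and 4.20 in control, 1.28 and 1.43 in the UVC cells and 21.8 and 23.4 with active photolyase, from 28 to 479 reads per library. The rise against UVC was 16.6-fold (4.06 ± 0.16) and against control 5.54-fold (2.47 ± 0.13). After UVC it fell 3.00-fold (-1.58 ± 0.20).

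The 5 tested LCE1 genes lay between -3.10 and -2.19 after UVC and between 0.61 and 1.38 against control. LCE1E was at 22.6 and 24.0 in control, 4.20 and 4.18 in the UVC cells and 37.6 and 33.5 with active photolyase, changes of -2.47 ± 0.14, 3.08 ± 0.13 and 0.61 ± 0.10. LCE1D, at 19.7 and 21.2 in control, 5.07 and 3.86 in the UVC cells and 40.8 and 33.8 with active photolyase, changed by -2.19 ± 0.12, 3.06 ± 0.12 and 0.87 ± 0.10. For both genes each group was separate from the others.

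LCE1C was at 11.99 and 13.04 in control, 1.69 and 1.35 in the UVC cells and 19.4 and 19.8 with active photolyase (-3.04 ± 0.16, 3.69 ± 0.15 and 0.65 ± 0.11). LCE1F, at 9.59 and 9.76, then 1.28 and 0.972, then 18.3 and 17.1, had changes of -3.10 ± 0.18, 3.97 ± 0.16 and 0.87 ± 0.12. LCE1A held 4 and 7 reads after UVC against 27 and 31 in control and 85 and 75 with active photolyase (-2.52 ± 0.41, 3.90 ± 0.33 and 1.38 ± 0.23). LCE1A reached the filter through the active photolyase libraries alone. Whether the LCE1 and LCE3 groups differ was not tested. LCE genes are near-identical too, and effective lengths ran from 19.6% (LCE1E) to 200.7% (LCE1D) of the longest GENCODE transcript, so the level of a single LCE gene is uncertain. Summed, the 6 LCE1 genes changed by -2.41 ± 0.10, 3.23 ± 0.09 and 0.82 ± 0.08, and the 5 LCE3 genes by -1.50 ± 0.07, 2.91 ± 0.07 and 1.41 ± 0.06.

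LCE5A was at 1.16 and 1.67 in control, 1.31 and 1.34 in the UVC cells and 2.32 and 2.16 with active photolyase. Against control its rise of 0.66 ± 0.20 lost its call without control replicate 1 (0.42, edgeR adjusted p = 0.106) or without active photolyase replicate 1 (0.61, edgeR adjusted p = 0.0549). LCE1B, LCE2C, LCE2D, LCE3A and LCE6A had reads but were under the filter. LCE2A, LCE2B, LCE3B, LCE3C and LCE4A had none in any library, like S100A7L2, which allows up to 3 reads per library, 0.052 CPM at the lowest depth. This limit covers counting error only.

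Of the other envelope genes, IVL (ENSG00000163207) encodes involucrin, an early scaffold of the envelope. It was at 739 and 700 scaled cRPKM in control, 414 and 380 in the UVC cells and 1027 and 866 with active photolyase. The groups did not overlap, and the log2 changes were -0.86 ± 0.08, 1.25 ± 0.08 and 0.40 ± 0.08 (adjusted p = 1.25e-07, 3.71e-09 and 0.000456 by edgeR). CRCT1, a small cysteine-rich gene beside the LCE genes, was at 2.57 and 2.65 in control, 1.42 and 1.11 in the UVC cells and 7.62 and 6.35 with active photolyase (-1.04 ± 0.20, 2.46 ± 0.17 and 1.42 ± 0.15).

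KPRP, which encodes a proline-rich protein of keratinocytes, fell furthest of the tested members after UVC, but reached 1 cRPKM in only 1 control and 2 active photolyase libraries. Among the 34 genes at 1 cRPKM in all 6 libraries, LCE1F fell furthest (-3.10). KPRP held 184 and 169 reads in control, 17 and 13 in the UVC cells, and 194 and 181 with active photolyase. The fall was 12.9-fold (-3.69 ± 0.21), and the level with active photolyase overlapped control (0.00 ± 0.14, edgeR adjusted p = 0.985). LORICRIN, the major protein of the mature envelope in skin, was at 1 and 5 reads in control, 10 and 22 in the UVC cells and 11 and 13 with active photolyase, under the filter. SMCP was under it as well.

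The fused S100-type genes did not move together. After UVC 2 of 5 tested were higher, 1 lower and 2 not called, beside 42.5% higher and 43.1% lower of all tested genes. CRNN, which encodes cornulin, was at 7.88 and 8.13 scaled cRPKM in control, 1.03 and 0.921 in the UVC cells and 8.92 and 8.41 with active photolyase. It fell 8.16-fold (-3.03 ± 0.10), was 8.85-fold higher with active photolyase (3.15 ± 0.10), and did not pass the test against control (0.12 ± 0.08, edgeR adjusted p = 0.198), although the libraries of the 2 groups did not overlap. With library totals that last difference was called (0.23, edgeR adjusted p = 0.0185).

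FLG, whose product is processed to filaggrin and to natural moisturising factor, was at 13.2 and 19.7 in control, 15.5 and 14.0 in the UVC cells and 19.5 and 17.9 with active photolyase. The control libraries were the furthest apart and spanned both UVC values. FLG was not called after UVC (-0.15 ± 0.13), and the value was 0.16 without control replicate 2 and -0.41 without control replicate 1, both called (adjusted p = 0.0434 and 2.47e-05 by edgeR). Against control it was not called (0.18 ± 0.13) except without control replicate 2 (0.50, edgeR adjusted p = 1.3e-05) and with library totals (0.29, edgeR adjusted p = 0.0462). Its call against UVC (0.34 ± 0.13, edgeR adjusted p = 0.0255) was lost without either UVC library or either active photolyase library (adjusted p of 0.052 to 0.192 by edgeR). That call was also lost with library totals (0.03, edgeR adjusted p = 0.818), with DESeq2 (0.34, DESeq2 adjusted p = 0.186) and with a filter of 5 cRPKM (0.24, edgeR adjusted p = 0.129). With limma it was lost at either pseudocount (0.03, limma adjusted p = 0.85 and 0.87) and with median-centring (0.12, limma adjusted p = 0.456). The effective length of FLG was 36.3% of its longest transcript.

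HRNR (hornerin) and TCHH (trichohyalin) rose after UVC at low levels. HRNR, which reached 1 cRPKM in no control library, was at 0.248 and 0.396 in control, 1.25 and 0.998 in the UVC cells and 1.44 and 1.01 with active photolyase. It rose by 1.82 ± 0.23 after UVC and stood 1.94 ± 0.23 above control with active photolyase, with no call between those 2 groups (0.12 ± 0.18). TCHH, at 1.26 and 1.54, then 3.08 and 2.78, then 2.31 and 2.17, changed by 1.06 ± 0.10, -0.39 ± 0.09 and 0.67 ± 0.10. RPTN (repetin), which reached 1 cRPKM in the active photolyase libraries alone, was not called after UVC (-0.39 ± 0.18). It was called lower there without UVC replicate 1 (-0.64, edgeR adjusted p = 0.0166), with no filter on low values (-0.48, edgeR adjusted p = 0.0212) and with a replicate block (-0.40, edgeR adjusted p = 0.0356). RPTN was higher with active photolyase than after UVC (1.70 ± 0.16) and than in control (1.31 ± 0.15). FLG2 and TCHHL1 were under the filter. CRNN, FLG, FLG2 and HRNR overlap the antisense gene FLG-AS1 in GENCODE, and the use of strand in counting is not given in the sources used here, so reads of the antisense gene could be counted in them.

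Of the 15 tested S100A genes, 6 were higher after UVC, 5 lower and 4 not called (median 0.37), shares near or below those of all tested genes (42.5% higher and 43.1% lower). With active photolyase 6 were higher and 4 lower than after UVC (median 0.00), and 8 were higher and 3 lower than in control (median 0.36). The shares of all tested genes were 39.2% and 39.9% against UVC and 33% and 32.9% against control. With library totals 11 were higher and 4 lower after UVC, 4 higher and 6 lower against UVC, and 8 higher and 2 lower against control. All 11926 tested genes then gave 7095 higher and 3542 lower, 3318 and 6954, and 5237 and 2840 in the same order.

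S100A8 and S100A9 encode the subunits of calprotectin, an alarmin of stressed keratinocytes and of myeloid cells. S100A8 was at 138 and 116 scaled cRPKM in control, 230 and 269 in the UVC cells and 200 and 196 with active photolyase. S100A9 was at 457 and 401, then 672 and 753, then 606 and 572. For both genes the UVC libraries were the highest, the control libraries the lowest, and no groups overlapped. S100A8 changed by 0.98 ± 0.08 after UVC, -0.34 ± 0.08 against UVC and 0.64 ± 0.08 against control, and S100A9 by 0.73 ± 0.07, -0.28 ± 0.07 and 0.46 ± 0.07. The S100A9 fall against UVC was not called without UVC replicate 2 (-0.19, edgeR adjusted p = 0.0646).

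S100A12, the other gene of this kind, lies between them, held 29 to 60 reads per library and was not called in any comparison with TMM factors and all libraries. After UVC it was called higher without control replicate 1 (0.83, edgeR adjusted p = 0.0232) and with library totals (0.92, edgeR adjusted p = 0.00328). The immune cell markers summed to 146 and 133 scaled cRPKM in control, 182 and 183 in the UVC cells and 189 and 199 with active photolyase, of which 4 of 11 were tested. CD74 (84.4 in control, 130 in the UVC cells and 112 with active photolyase) and CD68 (51.2, 48.7 and 79.4) made up most of that sum. CD14 averaged 1.55, 1.98 and 1.26 in control, UVC and active photolyase libraries. It was called higher after UVC and lower with active photolyase than after UVC, as S100A8 and S100A9 were. Each comparison taken alone, 42.5% and 39.9% of all tested genes were called in these directions. LYZ (0.283, 0.563 and 0.392) and ITGAM (0.175, 0.288 and 0.215) were also highest after UVC, under the filter. CD3E was at 1.93, 0.626 and 0.869 and FCGR3B at 0.0848, 0.038 and 0.194. The pan-leukocyte marker PTPRC was at 0.0339, 0.00423 and 0.0105 on average in the 3 groups, CSF1R at 0.0678, 0.0465 and 0.0889, and MPO at 0 in every library. The part of such cells in the S100A8 and S100A9 results was not tested.

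S100A6 (calcyclin) and S100A4 (metastasin) rose after UVC. S100A6 was at 1329 and 1187 in control, 2077 and 2167 in the UVC cells and 1847 and 1711 with active photolyase, changes of 0.76 ± 0.06, -0.26 ± 0.06 and 0.50 ± 0.06. S100A4, at 79.6 and 69.2, then 154 and 150, then 120 and 97.1, changed by 1.03 ± 0.09, -0.48 ± 0.09 and 0.55 ± 0.09. In both genes the active photolyase libraries lay between the other groups without overlap. S100A5, which lies between them and reached 1 cRPKM in no control library, rose after UVC by 0.99 ± 0.24 and stood 0.88 ± 0.24 above control with active photolyase. Its second call was lost without active photolyase replicate 1 (0.72, edgeR adjusted p = 0.0556).

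The next 3 S100A genes along the chromosome were lower after UVC. S100A2, a p63-linked S100 gene of basal keratinocytes, was at 2081 and 1964 in control, 779 and 780 in the UVC cells and 1658 and 1637 with active photolyase. It changed by -1.37 ± 0.05, 1.08 ± 0.05 and -0.29 ± 0.05 (adjusted p = 2.31e-11, 4.45e-10 and 0.000312 by edgeR). S100A3, a cysteine-rich S100 of hair cuticle, was at 32.7 and 40.7, then 15.4 and 14.1, then 29.9 and 26.8. It changed by -1.31 ± 0.10, 0.94 ± 0.10 and -0.37 ± 0.09, and the last was not called with limma at pseudocounts of 1 and 0.1 (-0.25 and -0.26, limma adjusted p = 0.058 and 0.0955). S100A16 was at 1091 and 1016, then 503 and 478, then 1006 and 947, and changed by -1.10 ± 0.06 and 0.99 ± 0.06, with no call against control (-0.11 ± 0.06, edgeR adjusted p = 0.116) except without control replicate 2 (-0.16, edgeR adjusted p = 0.0262) and with no filter on low values (-0.16, edgeR adjusted p = 0.0378). S100A3 and S100A4 overlap on the same strand in GENCODE, so reads in the overlap could be counted for either.

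**Figure D3:**
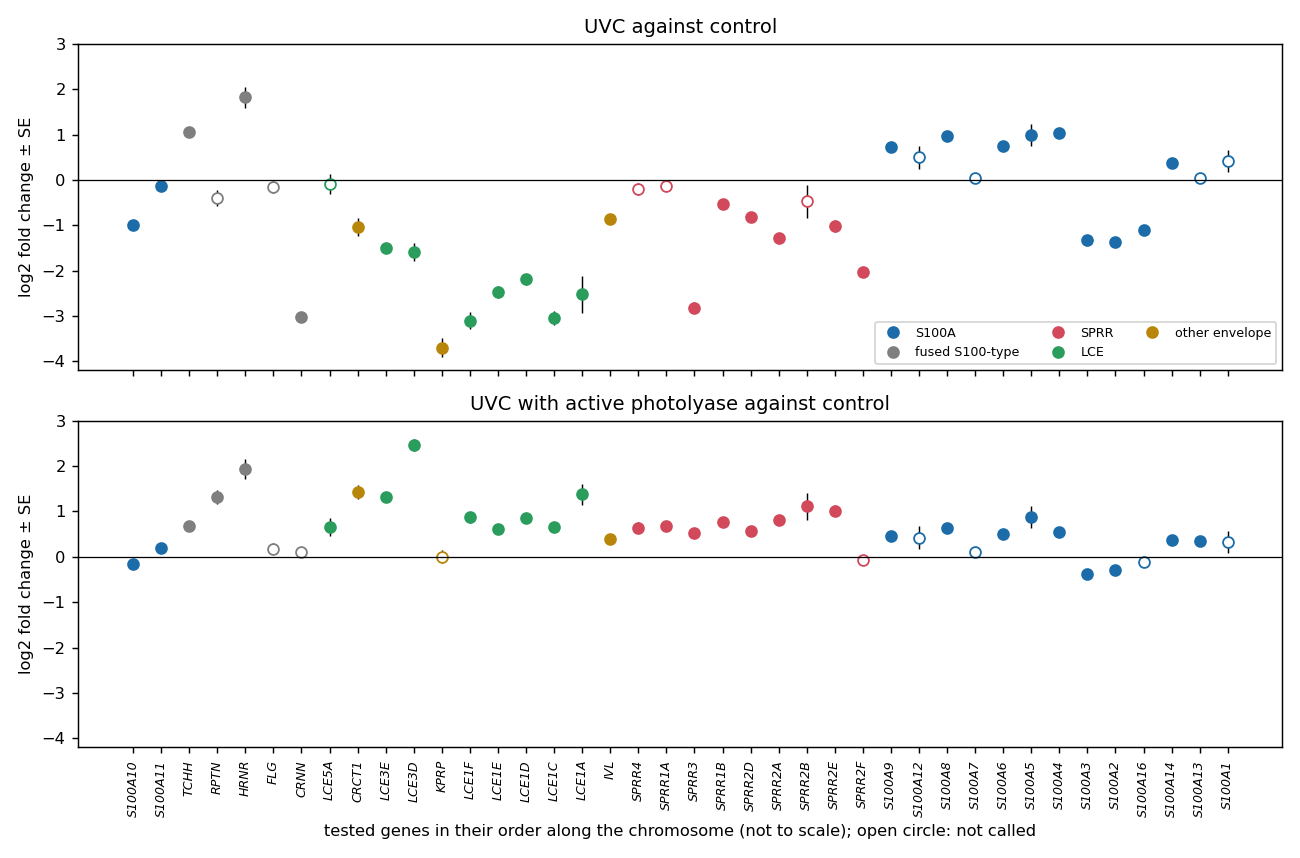
Log2 fold change ± SE of the tested genes in their order along chromosome 1 (order only, not to scale), for UVC against control (top) and UVC with active photolyase against control (bottom); filled circles were called, open ones were not, and colours are families. In the top panel S100A6, S100A5 and S100A4 lie above 0 and their neighbours S100A3, S100A2 and S100A16 below it.

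S100A10 (p11), which binds annexin A2, was at 1044 and 958 in control, 500 and 511 in the UVC cells and 860 and 922 with active photolyase. It changed by -0.98 ± 0.06, 0.82 ± 0.06 and -0.17 ± 0.06, and the last call (edgeR adjusted p = 0.0239) was lost with library totals (-0.06, edgeR adjusted p = 0.421) and without control replicate 1, either UVC library or active photolyase replicate 1 (adjusted p of 0.0519 to 0.189 by edgeR). ANXA2, the gene of its partner, averaged 3234 in control, 1264 in the UVC cells and 1890 with active photolyase. It changed by -1.35 ± 0.06, 0.58 ± 0.06 and -0.77 ± 0.06.

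S100A11 (calgizzarin), which binds annexin A1, had the highest level of the tested members, at 3299 and 3016 in control, 2914 and 2825 in the UVC cells and 3675 and 3529 with active photolyase. Its fall after UVC was small (-0.14 ± 0.06, edgeR adjusted p = 0.0436) and turned to a rise with library totals (0.28, edgeR adjusted p = 0.000483). The fall was not called with a filter of 5 cRPKM (-0.02, edgeR adjusted p = 0.772) or with the 4 libraries compared alone (-0.10, edgeR adjusted p = 0.152). It was also not called without control replicate 1, without either UVC library or without either active photolyase library (adjusted p of 0.0522 to 0.252 by edgeR). The rise against UVC (0.33 ± 0.06) was not called with library totals (0.02, edgeR adjusted p = 0.754). The rise against control (0.19 ± 0.06, edgeR adjusted p = 0.0117) was lost without control replicate 2 (0.13, edgeR adjusted p = 0.0605) or active photolyase replicate 1 (0.16, edgeR adjusted p = 0.0825). ANXA1 fell from 2084 to 589 after UVC (-1.82 ± 0.06) and was at 2224 with active photolyase.

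S100A14, an S100 of epithelial cells, was at 842 and 796 in control, 1049 and 1071 in the UVC cells and 1078 and 1046 with active photolyase. It was higher than control in both (0.37 ± 0.05 and 0.38 ± 0.05), and the 2 irradiated groups overlapped (0.00 ± 0.05), a difference that turned to -0.31 with library totals (edgeR adjusted p = 0.000115). S100A13, which takes part in non-classical secretion, was at 79.4 and 76.2, then 80.0 and 81.3, then 99.9 and 99.0. It was not called after UVC (0.05 ± 0.05), but was with library totals (0.47, edgeR adjusted p = 3.56e-07) and with a filter of 5 cRPKM (0.17, edgeR adjusted p = 0.00355). Limma also called S100A13 higher after UVC, at pseudocounts of 1 (0.46) and 0.1 (0.47) and median-centred (0.34). S100A13 was higher with active photolyase by 0.30 ± 0.05 against UVC and 0.36 ± 0.05 against control. With library totals the difference from UVC was -0.01 (edgeR adjusted p = 0.921).

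S100A7 (psoriasin), an antimicrobial S100, was at 66.7 and 59.0, then 63.2 and 65.7, then 70.3 and 64.9, and was not called in any comparison with TMM factors. With library totals it was higher after UVC (0.45, edgeR adjusted p = 0.000319) and lower with active photolyase than after UVC (-0.24, edgeR adjusted p = 0.025). Its effective length was 127 nt, 26.5% of its longest transcript, and its near-identical neighbour S100A7A held 14 to 50 reads per library. S100A1, which overlaps S100A13 on the opposite strand, held 35 to 65 reads per library and was called in no comparison with TMM factors, and was higher after UVC with library totals (0.83, edgeR adjusted p = 0.00487).

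As a share of all gene counts, with no scaling, the 57 genes took 1.02 and 0.940% in control, 0.986 and 0.972% in the UVC cells and 1.30 and 1.20% with active photolyase. S100A genes made up most of this, at 0.736 and 0.679% in control, 0.761 and 0.772% in the UVC cells and 0.812 and 0.791% with active photolyase. The SPRR share was 0.149 and 0.128%, then 0.118 and 0.103%, then 0.272 and 0.230%. The LCE share was 0.0054 and 0.0055%, then 0.002 and 0.002%, then 0.0133 and 0.0122%.

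**Figure D4:**
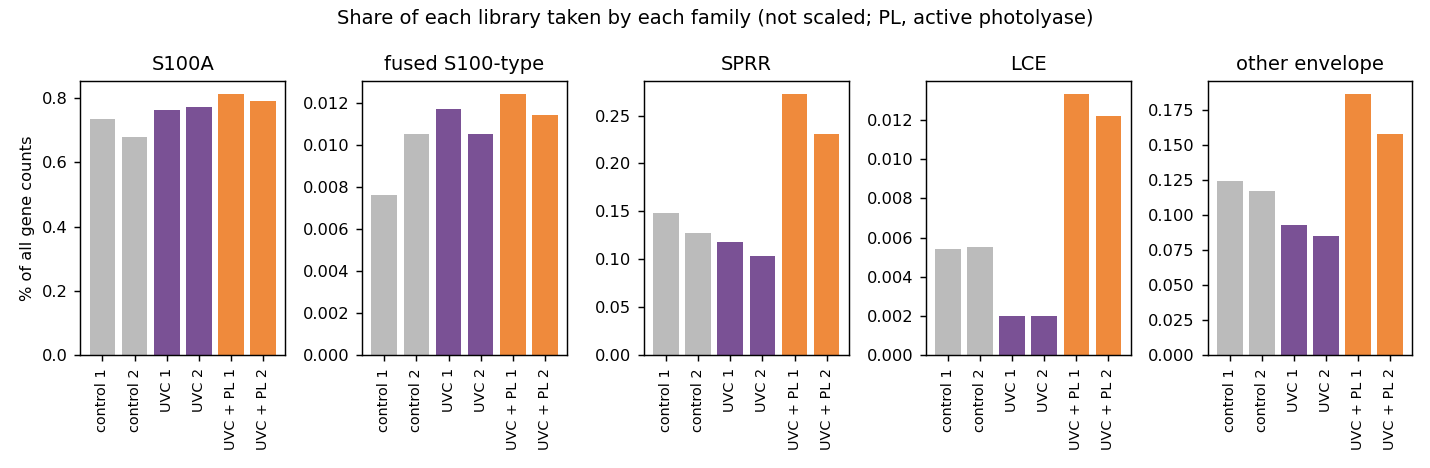
Percent of all gene counts taken by each family in each library (bars; each panel has its own axis from 0; PL, active photolyase), with no scaling between libraries. The SPRR, LCE and other envelope families took the largest share in the active photolyase libraries and the smallest in the UVC libraries.

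Within the stretch lie 5 further genes with values, outside the rule. Of all tested genes, 42.5% were higher and 43.1% lower after UVC, 39.2% and 39.9% against UVC, and 33% and 32.9% against control. PRR9, a proline-rich gene between the SPRR genes and LORICRIN, averaged 369 scaled cRPKM in control, 85.1 in the UVC cells and 690 with active photolyase, changes of -2.12 ± 0.06, 3.02 ± 0.06 and 0.90 ± 0.06. After UVC the other 4 were higher, among them PGLYRP4 (0.81 ± 0.06), which encodes a peptidoglycan recognition protein, and C1orf68 (0.45 ± 0.11). With active photolyase 3 of the 5 were higher than after UVC, PRR9 and LELP1 (1.17 ± 0.21) among them, and PGLYRP4 (-0.56 ± 0.06) and PGLYRP3 (-0.38 ± 0.11) were lower. Against control 4 of the 5 were higher and none lower, including LELP1 (2.07 ± 0.23).

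Partners of these proteins elsewhere in the genome are given by list, to be read against the shares of all tested genes (42.5% higher and 43.1% lower after UVC, 39.2% and 39.9% against UVC, 33% and 32.9% against control). As among the members, some listed genes passed the filter through some libraries only. Of 12 tested genes for cross-linking enzymes and envelope precursors outside the complex, 5 were higher and 4 lower after UVC (median 0.11), 6 higher and 3 lower with active photolyase against UVC (0.16), and 7 higher and 2 lower against control (0.43). The transglutaminase genes TGM1 (-1.64 ± 0.07) and TGM2 (-1.69 ± 0.06) fell after UVC, while cystatin A (CSTA, 0.75 ± 0.05) and TMEM45A (0.64 ± 0.08) rose. With active photolyase TGM2 (3.13 ± 0.06) and SBSN (2.77 ± 0.14) were higher than after UVC, and the plakin gene EVPL (-0.24 ± 0.05) and TMEM45A (-0.33 ± 0.08) lower. Against control TGM2 (1.45 ± 0.06) and the elafin gene PI3 (0.93 ± 0.06) were higher, and PPL (-0.72 ± 0.05) and TGM1 (-0.53 ± 0.07) lower.

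Of 21 genes of filaggrin and envelope proteolysis, 8 were higher and 9 lower after UVC (median -0.04), 11 and 6 against UVC (0.53), and 11 and 3 against control (0.17). The largest change was in SPINK6, a kallikrein inhibitor, at -3.00 ± 0.08 after UVC and 3.23 ± 0.08 with active photolyase against UVC. ST14, which encodes matriptase, changed by -2.24 ± 0.05, 1.46 ± 0.05 and, against control, -0.79 ± 0.05. CASP14, a caspase that takes part in filaggrin breakdown, moved the other way (1.12 ± 0.06, -0.68 ± 0.06 and 0.45 ± 0.06), as did BLMH, another enzyme of filaggrin breakdown (0.67 ± 0.08 and -0.63 ± 0.08 in the first 2). Against control the cathepsin genes CTSL (0.58 ± 0.05) and CTSV (0.71 ± 0.06) were higher and the deiminase gene PADI1 (-0.45 ± 0.05) lower.

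Of 18 regulators of epidermal differentiation, 6 were higher and 9 lower after UVC (median -0.14), 10 and 3 against UVC (0.59), and 9 and 6 against control (0.13). GRHL3, a grainyhead factor, changed by -2.62 ± 0.06 after UVC, while HES1 (1.21 ± 0.06), a target of Notch signalling, rose. Against UVC, GRHL3 (2.73 ± 0.06) and KLF5 (2.05 ± 0.05) were higher and HES1 (-1.05 ± 0.06) and ELF3 (-0.35 ± 0.06) lower. Against control, KLF4 (0.94 ± 0.05) was higher and GRHL1 (-0.92 ± 0.08) and TP63 (-0.62 ± 0.06) lower.

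Of 9 tested annexin partners and receptors of S100 proteins, 4 were higher and 5 lower after UVC, 4 and 2 against UVC, and 2 and 3 against control. The receptor gene AGER rose after UVC (1.52 ± 0.18) from a mean of 0.525 scaled cRPKM, and basigin (BSG) by 0.34 ± 0.05. AGER reached 1 cRPKM in no control library, so it passed the filter through the irradiated libraries alone. The 4 higher after UVC and the 2 higher than control include it. ANXA1 (1.92 ± 0.06) and ANXA5 (0.88 ± 0.05) were higher with active photolyase than after UVC, and AHNAK (-0.48 ± 0.12) and BSG (-0.18 ± 0.05) were lower. Against control AGER (1.24 ± 0.18) and BSG (0.17 ± 0.05) were higher and ALCAM (-0.72 ± 0.05) lower. TLR4, another receptor, was under the filter. Of 4 S100 genes outside the complex only S100P was tested: it was not called after UVC (-0.04 ± 0.06) and was higher with active photolyase against UVC (0.51 ± 0.06) and against control (0.47 ± 0.06).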

How the data were processed

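RNA from HaCaT cells went into Illumina TruSeq libraries, per the labels' protocols. The submitters' processing notes name Bowtie and hg19. How reads were assigned to genes, whether strand was used, and which annotation served were not given in the sources used here. The authors deposited, by Ensembl gene, a whole-number count and a length-corrected RPKM (cRPKM). From the values, the deposited RPKM equals that count over an effective length and the library total. Of 19847 genes, 354 had no value. Symbols came from a table of Ensembl IDs (18913 of 19493 matched).

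The test on counts used edgeR 4.0.16 under R 4.3.3 (quasi-likelihood F test, two-sided, 3 group means over all 6 libraries, TMM factors 0.884 to 1.18), on the 11926 genes with at least 1 cRPKM in at least 2 libraries, with Benjamini-Hochberg adjustment over them and a threshold of 0.05. SEs came from the fold change and F statistic. The test was also run on simulated counts in which few genes changed. In these data 85.6% of tested genes were called after UVC, so that run cannot check the TMM factors. Between replicates of a group, chi-square per degree of freedom was 5.61 to 24.3, so none was a library deposited a second time. Alternatives used limma 3.58.1 and DESeq2 1.42.0. Named were members averaging at least 5 scaled cRPKM in a group, and in each other list the tested genes of smallest p, up to 2 each way, some of which are not reported here. The 10 tested members below that level were described after their values were seen. So were the members under the filter, TLR4, KRT16 and KRT17 after UVC, ANXA1 and ANXA2 against their partners and the immune cell markers. Members and lists were chosen with earlier results of these data known.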

Additional observations from a re-analysis of the deposited data

How the results depend on the processing

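Alternatives were library totals, DESeq2, no filter or one of 5 cRPKM, limma on log2(cRPKM + 1), log2(cRPKM + 0.1) or median-centred values, the 4 libraries compared alone, a replicate block, and leaving out each library. The members called higher after UVC were 8 with TMM factors, 14 with library totals and with limma at either pseudocount, and 13 with median-centring. The median after UVC (-0.67) was -0.25 with library totals and with limma at either pseudocount, -0.38 median-centred, -0.48 with no filter (51 members tested) and -0.88 with a filter of 5 cRPKM (30 tested). Against UVC, members called lower (5) were 10 and 8 with limma at pseudocounts of 1 and 0.1, and the median (1.03) was 0.73 with library totals, 0.68 and 0.73 with limma and 0.76 median-centred. Against control, members called lower (3) were 1 with limma at either pseudocount. Leaving out 1 library gave 21 to 25 lower and 8 to 9 higher after UVC (median -0.94 to -0.57), 28 to 29 higher and 4 to 5 lower against UVC (1.01 to 1.05), and 26 to 29 higher and 2 to 4 lower against control (0.48 to 0.67).

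Single values that changed sign, with a call in the main fit or in the alternative, were as follows, with the cause not tested. After UVC, S100A11 was at 0.28 with library totals and limma at either pseudocount and 0.15 median-centred, SPRR1A at 0.28 with library totals and limma at either pseudocount, and FLG at 0.16 without control replicate 2 (-0.41 without control replicate 1). Against UVC, S100A13 was at -0.0054 with library totals and -0.0043 with limma at either pseudocount, S100A14 at -0.31, -0.30 and -0.30 in these and -0.22 median-centred, and S100A7 at -0.24 in all 3. Other values changed sign without a call in either fit. Among them, after UVC with library totals, SPRR4 was at 0.21, LCE5A at 0.32, RPTN at 0.03 and FLG at 0.26. Replicate numbers are shared between groups. Over the tested genes, replicate differences correlated at -0.047 to 0.121 between groups. That low correlation does not settle whether the numbers pair the libraries, and the main fit had no replicate block. With a replicate block, members called lower after UVC were 24 (22 without it), with SPRR1A (-0.14, edgeR adjusted p = 0.0272) and RPTN (-0.40, edgeR adjusted p = 0.0356) added, and the other counts did not change. Low depth limits members with few reads, such as LCE1A and SPRR2B.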
